A study of Mus musculus with 12 samples.

Results

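The comparison described here is MS-275 against vehicle in the calvaria (the roof of the skull) of Runx2+/- mouse embryos, which carry 1 intact copy of Runx2, at embryonic day 17.5. It rests on 6 of the 12 RNA sequencing libraries of the study, grouped by their labels. Of these, 3 came from Runx2+/- embryos whose dams had received MS-275 and 3 from Runx2+/- embryos whose dams had received vehicle. The comparison was chosen with earlier results of these data known. The other 6 libraries, from wild-type (WT) embryos under the same 2 treatments, shared the estimate of spread and served as a second setting for the drug. All embryos were C57BL/6. Parents had been mated at 8 weeks of age, and the drug was injected into the peritoneum of pregnant dams at 10 mg per kg, at 14.5 and again at 16.5 days post coitum, so the embryos were exposed through the dam. The labels give neither the composition of the vehicle nor which part of Runx2 the heterozygous allele lacks. They do not say whether replicates came from separate embryos or litters. Every p-value therefore measures the spread between these libraries, part of which may be technical. Sex transcripts, given below, set vehicle replicate 1 apart from vehicle replicates 2 and 3.

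Runx2 is the transcription factor without which no osteoblasts form, and loss of 1 copy causes cleidocranial dysplasia in people, with open sutures and thin vault bones. It binds DNA together with CBF beta and activates genes of the bone matrix, among them those for osteocalcin, osteopontin and bone sialoprotein. MS-275 (entinostat) inhibits class I histone deacetylases (HDACs), the enzymes that remove acetyl groups from histones within corepressor complexes. RUNX2 itself recruits and is deacetylated by HDACs. The comparison asks how transcript levels in a skull vault with 1 intact Runx2 copy stood after exposure to such an inhibitor.

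The sequence that Runx proteins bind contains ACCACA or its reverse complement TGTGGT. It is shown here in the stretches before the start of 3 bone matrix genes, osteocalcin (Bglap), osteopontin (Spp1) and Mepe. These 3 were picked by hand from the bone matrix genes with large differences described further on. Sequences are RefSeq's, build GRCm38.p6, 250 bases that end at the base before the annotated start, 5′ to 3′ on the gene's own strand, with the motif in capitals.
Bglap, chr3:88384467-88384716, minus strand: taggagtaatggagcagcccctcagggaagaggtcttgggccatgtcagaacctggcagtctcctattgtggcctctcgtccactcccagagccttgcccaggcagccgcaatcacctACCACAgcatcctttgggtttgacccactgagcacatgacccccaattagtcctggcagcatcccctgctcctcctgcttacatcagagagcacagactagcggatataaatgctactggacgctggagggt
Spp1, chr5:104434861-104435110, plus strand: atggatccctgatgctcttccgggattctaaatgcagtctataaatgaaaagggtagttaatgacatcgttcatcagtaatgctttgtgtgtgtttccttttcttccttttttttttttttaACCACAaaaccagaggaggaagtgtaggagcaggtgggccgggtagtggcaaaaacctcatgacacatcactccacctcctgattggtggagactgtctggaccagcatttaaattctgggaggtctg
Mepe, chr5:104325079-104325328, plus strand: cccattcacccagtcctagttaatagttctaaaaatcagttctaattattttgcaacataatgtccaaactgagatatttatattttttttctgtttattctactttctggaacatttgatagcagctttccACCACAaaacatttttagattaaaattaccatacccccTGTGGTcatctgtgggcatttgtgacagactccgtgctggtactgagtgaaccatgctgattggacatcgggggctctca
The motif began 132 bases before the start of Bglap and 128 before that of Spp1. In Mepe ACCACA began 118 and TGTGGT 80 bases before the start. Over the RefSeq promoters of all genes, from 250 bases before to 50 after the start, 5506 of 32851 (16.8%) held ACCACA or TGTGGT on either strand. Of the 17 promoters of bone matrix genes, which belong to 14 of the list's 18 genes, 6 held it (35.3%). They were those of Bglap, Dmp1, Mepe, Serpinf1, Sparc and Spp1. Bglap2, Ibsp and Ifitm5, which also differed much, are not among these 6, for lack of the motif or of a promoter in the set. A match to these letters describes the sequence and was not tested as a binding site.

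The library labelled MS-275 replicate 3 stood apart from the other 2 of its group. Its log2 CPM (counts scaled to library size and corrected by trimmed mean of M values, TMM) correlated across genes at 0.96, 0.97 and 0.92 with the 3 vehicle libraries and at 0.83 and 0.85 with MS-275 replicates 1 and 2, which correlated with each other at 0.97. Depth did not set it apart, at 17258068 counts in genes beside 17865741 and 15405004 for MS-275 replicates 1 and 2 and 16108108 to 17636311 for vehicle. Of its uniquely aligned reads, 22.2% fell in no annotated gene, beside 6.36% and 8.65% in replicates 1 and 2 and 14.1% to 16.8% in vehicle. Its share of counts from mitochondrial genes was 9.48%, beside 24.2% and 16.2% in replicates 1 and 2 and 4.32% to 5.52% in vehicle. Sex was not balanced: Xist counts were high in all 3 MS-275 libraries, at 29300 or more, but 60 in vehicle replicate 1, where 4 Y-linked genes summed to 4785 counts, beside 80 in vehicle replicate 3 and 4 or fewer in the other 4 libraries. Levels below are therefore given for each library, and the test without replicate 3 beside that with all 6. Since that library was set aside for its values, the calls made without it describe MS-275 replicates 1 and 2 against the 3 vehicle libraries and are no test of the drug over all its libraries.

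With all 6 libraries no gene passed. Of 17967 genes tested, 0% were called higher and 0% lower (edgeR quasi-likelihood test, Benjamini-Hochberg adjusted p under 0.05), the smallest adjusted p was 0.181, and 3782 genes had an unadjusted p under 0.05. limma-voom also called 0 genes, while DESeq2 called 812 higher (4.52%) and 408 lower (2.27%). Without replicate 3, edgeR called 3367 of 18216 genes higher (18.5%) and 2588 lower (14.2%), with a smallest adjusted p of 0.00097. Of the 5943 of these genes that were also tested with all 6 libraries, 5930 kept the sign of their log2 fold change there, but in only 1364 did all 3 MS-275 libraries lie beyond the vehicle libraries on the same side (646 higher, 718 lower), and in 3125 replicate 3 lay within the vehicle range. Over all genes tested, the 3 MS-275 libraries lay above every vehicle library in 6.33% and below in 8.56%, and MS-275 replicates 1 and 2 did so in 30.3% and 33.6%. Counts of list members below are to be read beside these shares over all genes. Below, a gene is called higher or lower, or said to have risen or fallen, only where it passed the edgeR test without replicate 3. With all 6 libraries edgeR called no member of any list, whereas DESeq2 called members of several, which is said where it concerns 8 or more.

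Scaling matters for small differences. Library sizes alone, without TMM factors, lowered the median log2 fold change over all tested genes by 0.44 with all 6 libraries and by 0.85 without replicate 3. The split of calls without replicate 3 then moved from 3367 higher and 2588 lower to 784 higher and 8755 lower. Directions below are relative to the TMM scale, and where a printed median changed sign on the other scale this is said beside it. Of medians not printed, those of the WNT, p53, neutrophil, integrated stress response and Runx lists also turned from above to below 0 without replicate 3.

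**Figure D1:**
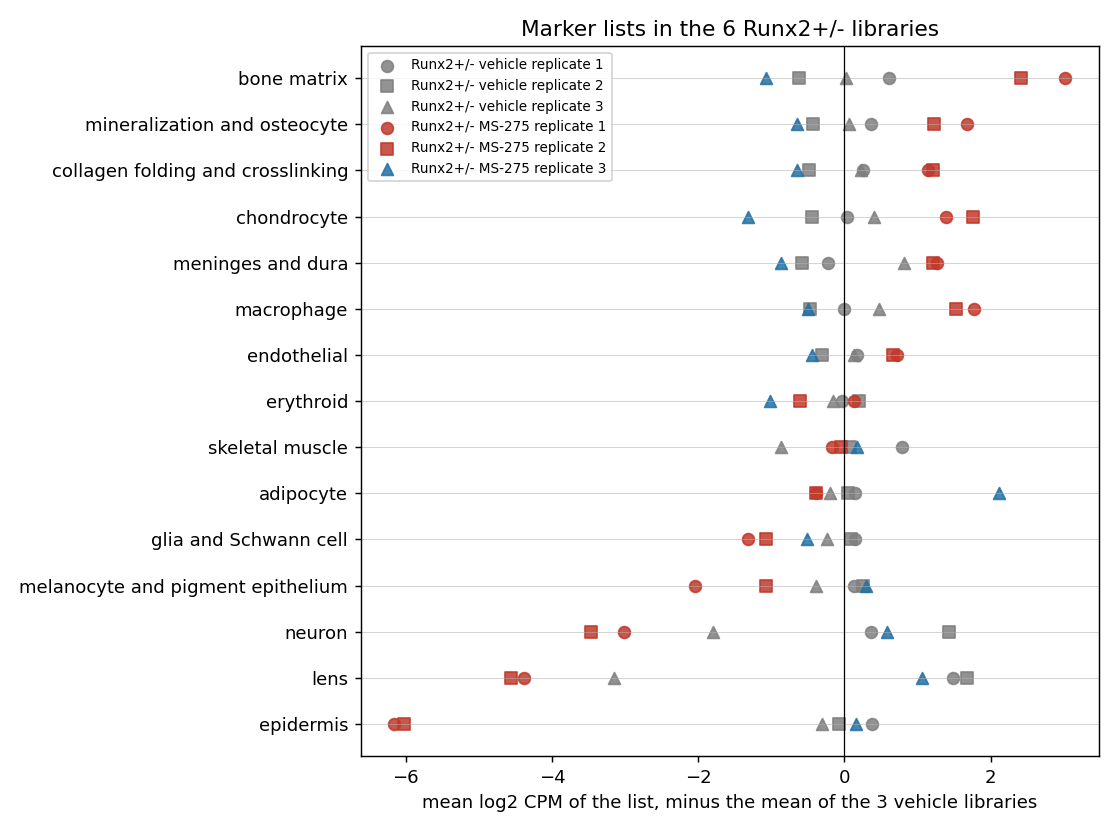
Mean log2 CPM of each marker list in the 6 Runx2+/- libraries, minus the mean of the 3 vehicle libraries (0 on the horizontal axis). Grey symbols are vehicle libraries, red symbols MS-275 replicates 1 and 2, and the blue triangle MS-275 replicate 3, which lies below the vehicle libraries for bone matrix and among them for epidermis, and stands alone for adipocyte genes.

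Runx2 itself (chromosome 17, 44495987 to 44814797, minus strand, GRCm38) stood at 65.3, 32.8 and 58.1 CPM in vehicle replicates 1, 2 and 3 and at 84.05, 93.5 and 34.1 CPM in MS-275 replicates 1, 2 and 3. Levels below follow the same order of replicates. MS-275 replicates 1 and 2 lay above all vehicle libraries, and replicate 3 lay close to the lowest of them. The log2 fold change was 0.44 (SE 0.36) with all 6 libraries and 0.77 (SE 0.27, edgeR adjusted p = 0.0495) without replicate 3, and -0.07 with library sizes alone. The Runx2 call was also lost without replicate 3 of both groups (edgeR adjusted p = 0.0716), with relative log expression (RLE) factors (edgeR adjusted p = 0.0508) and from the Runx2+/- libraries only (edgeR adjusted p = 0.104). These libraries hold RNA from 1 intact copy and possibly from the altered one, and the counts do not tell them apart. Cbfb, the DNA-binding partner shared by all Runx proteins, was at 107, 76.2 and 118 CPM in vehicle and 207, 146 and 74.6 CPM with MS-275, which without replicate 3 is 0.82 on the log2 scale (SE 0.23; adjusted p from edgeR 0.0259) but -0.07 with library sizes alone, and its adjusted p from edgeR was 0.0681 from the Runx2+/- libraries only. Runx1, which acts in blood stem cells, was at 26.4, 20.2 and 19.7 CPM in vehicle and 17.1, 20.4 and 15.5 CPM with MS-275, Runx3 at 5.73, 2.28 and 3.26 and 4.37, 4.47 and 2.35 CPM, and neither was called.

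Bone matrix genes had the highest median among the 7 skeletal lists. Without replicate 3, 15 of 18 measured members were called higher and 0 lower, with a median log2 fold change of 1.92. With all 6 libraries edgeR called none and DESeq2 9 higher, and the median was 1.47. The list's summed level was 28921, 11783 and 14582 CPM in vehicle and 89199, 56835 and 6595 CPM with MS-275.

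Bglap, which encodes osteocalcin, the vitamin K-dependent hormone and matrix protein of mature osteoblasts, was at 6.57, 2.88 and 8.61 CPM in vehicle and 202, 79.3 and 2.09 CPM with MS-275. MS-275 replicates 1 and 2 lay far above all vehicle libraries, and replicate 3 lay below them. Its log2 fold change was 3.97 (SE 1.10) with all 6 and 4.55 (SE 0.51, edgeR adjusted p = 0.00159) without replicate 3. Bglap2, a neighbouring near-identical copy whose reads the counting could split with Bglap, was at 3.10, 1.72 and 4.28 CPM in vehicle and 129.8, 57.9 and 1.13 CPM with MS-275. Spp1 (osteopontin), an acidic phosphoprotein that binds mineral and cells, was at 611, 186 and 575 CPM in vehicle and 19020, 8677 and 134 CPM with MS-275. It was among the most abundant transcripts of replicates 1 and 2, and differed on the log2 scale by 4.92 without replicate 3 (SE 0.70; adjusted p from edgeR 0.0027) and by 4.34 (SE 1.28) with it. Ibsp (bone sialoprotein), which nucleates mineral, was at 1212, 328 and 459.8 CPM in vehicle and 17975, 8952 and 375 CPM with MS-275, and replicate 3 fell inside the vehicle range. Mepe, a phosphoprotein of osteocytes, was scarce in vehicle at 1.16, 0.388 and 0.458 CPM and reached 48.1 and 11.9 CPM in MS-275 replicates 1 and 2, with 0.131 CPM in replicate 3. These 4 genes share the order of libraries: replicate 1 highest, replicate 2 next, and replicate 3 within or below the vehicle range.

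Other noncollagenous matrix genes rose too. Dmp1, an osteocyte regulator of mineral and phosphate, rose without replicate 3 by 3.33 (SE 0.52) on the log2 scale, the osteoblast membrane protein gene Ifitm5 by 4.34 (SE 0.55) and the keratan sulfate proteoglycan gene Omd by 4.03 (SE 0.66). The type I collagen genes differed by less. Col1a2 was at 9973, 4067 and 4449 CPM in vehicle and 18354, 14368 and 1808 CPM with MS-275 and passed narrowly without replicate 3 (log2 fold change 1.41, SE 0.49, edgeR adjusted p = 0.0494), whereas Col1a1, its partner chain in type I collagen, was at 9956, 3595 and 3011 and 13198, 7331 and 1105 CPM and did not (log2 fold change 0.89, SE 0.61, edgeR adjusted p = 0.265). Other settings without replicate 3 lost the Col1a2 call, at an edgeR adjusted p of 0.0508 with RLE factors, 0.115 without replicate 3 of both groups, 0.110 from the Runx2+/- libraries only and 0.363 with library sizes alone. Vehicle replicate 1 was higher in Col1a1 than MS-275 replicate 2, so these groups overlapped. Postn (periostin) rose by 2.06 (SE 0.33), Sparc (osteonectin) by 1.58 (SE 0.51) and Cdh11, the cadherin of osteoblasts, by 1.77 (SE 0.29) without replicate 3. The 3 members not called were Col1a1, Fbn1 and Tnn.

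**Figure D2:**
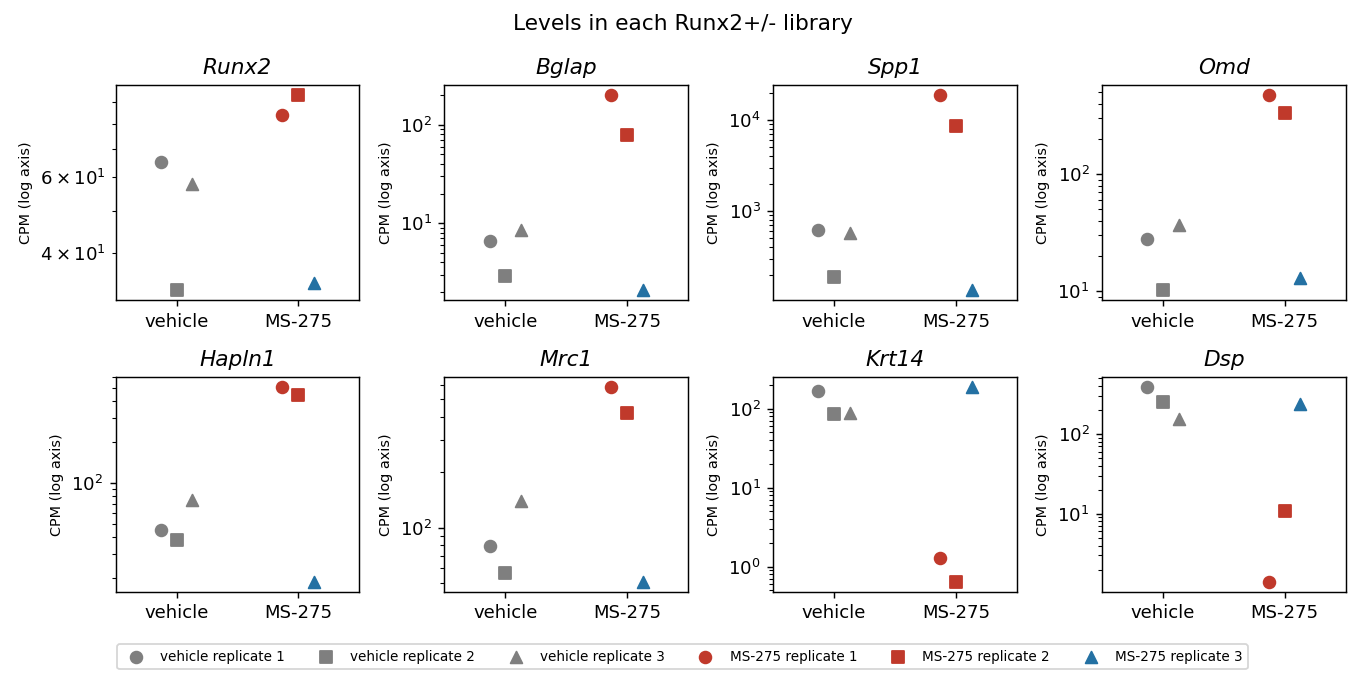
CPM on a log axis of 8 genes in each Runx2+/- library, vehicle on the left and MS-275 on the right of each panel. Red symbols are MS-275 replicates 1 and 2 and the blue triangle is replicate 3, which lies within or near the range of the vehicle libraries (grey) in each panel.

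The transcription factors and receptors upstream of the matrix differed far less than the matrix genes. Of 14 osteoblast regulators, 2 were called higher without replicate 3, Cbfb and Mef2c, and none lower, beside 18.5% and 14.2% of all genes. The list's median was 0.55, which changed sign to -0.31 with library sizes alone. Sp7 (osterix), which acts downstream of Runx2, was at 75.05, 25.5 and 42.4 CPM in vehicle and 100.02, 80.01 and 20.2 CPM with MS-275, or 0.92 on the log2 scale without replicate 3 (SE 0.44; adjusted p from edgeR 0.121). MS-275 replicates 1 and 2 lay above every vehicle library, and replicate 3 below them. Dlx5, a homeobox factor of the osteoblast lineage, was at 17.8, 12.4 and 12.2 and 12.2, 13.8 and 9.31 CPM, with overlapping groups. Mef2c, a factor that drives Sost in osteocytes, was the only member of this list with all 3 MS-275 libraries above vehicle, at 213, 218 and 129 CPM in vehicle and 365, 341 and 233 CPM with MS-275 (log2 fold change 0.75, SE 0.28, with all 6 and 0.16 with library sizes alone).

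Mineralization and osteocyte genes went with the matrix. Without replicate 3, 8 of 15 tested members were called higher and none lower, with a median of 1.52 on the log2 scale. With all 6 libraries 14 members passed the filter on low counts, none was called and the median was 0.82. Phex, the endopeptidase mutated in X-linked hypophosphatemia, was at 61.4, 26.8 and 43.2 CPM in vehicle and 630.1, 309.9 and 19.4 CPM with MS-275 (log2 fold change 3.42, SE 0.38, edgeR adjusted p = 0.00149, without replicate 3). Enpp1, which makes the mineral inhibitor pyrophosphate, was at 35.98, 17.5 and 33.4 CPM in vehicle and 184, 119.7 and 15.3 CPM with MS-275 (log2 fold change 2.39, SE 0.31). Both genes had replicate 3 below the lowest vehicle library. Ank, the pyrophosphate transporter, missed the threshold at 0.81 (SE 0.28, edgeR adjusted p = 0.0506). Mgp, a mineral inhibitor of cartilage and vessels, rose by 3.11 (SE 0.50), Tnfrsf11b (osteoprotegerin), the decoy receptor for RANKL, by 2.45 (SE 0.53) and the WNT inhibitor Dkk1 by 1.998 (SE 0.40) without replicate 3. Fgf23, the phosphate hormone of osteocytes, passed the filter only without replicate 3. It was at 0.185, 0.0861 and 0.204 CPM in vehicle and 31.9, 1.91 and 0.348 CPM with MS-275, so a single library held most of its reads.

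Genes of collagen processing were called higher along with the matrix. Of 17 members, 9 were called higher without replicate 3 and none lower, at a median of 1.05. P4ha1, a prolyl hydroxylase subunit, was at 116, 91.1 and 138 CPM in vehicle and 721, 800.5 and 75.1 CPM with MS-275 (log2 fold change 2.73, SE 0.28, edgeR adjusted p = 0.00121, without replicate 3). Plod2, a lysyl hydroxylase, was at 92.2, 62.1 and 94.1 CPM in vehicle and 238, 274 and 69.4 CPM with MS-275 (log2 fold change 1.63, SE 0.20). In both, MS-275 replicates 1 and 2 lay above every vehicle library and replicate 3 within or below them. Lox, the lysyl oxidase that crosslinks collagen, was not called at 0.93 (SE 0.38, edgeR adjusted p = 0.0808). The collagen chaperone gene Serpinh1 rose by 2.02 (SE 0.42) and the cyclophilin gene Ppib by 2.42 (SE 0.35).

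Chondrocyte genes behaved like bone matrix in part. Without replicate 3, 9 of 18 were called higher and none lower (median 1.15). With all 6 the median was 0.64, and -0.09 with library sizes alone. Sox9, the master regulator of cartilage, was at 19.8, 18.2 and 33.4 and 22.7, 28.4 and 12.1 CPM and not called, and Col2a1, the cartilage collagen, was at 263, 177 and 533 and 452, 813 and 82.3 CPM and not called. Acan (aggrecan) was called higher without replicate 3, at 54.8, 31.3 and 49.4 CPM in vehicle and 95.8, 133 and 10.1 CPM with MS-275. The largest differences were in matrix and surface genes, with Snorc at 4.53 (SE 0.38), Matn1 at 3.41 (SE 0.48) and the link protein Hapln1 at 3.18 (SE 0.28) on the log2 scale without replicate 3.

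Suture and osteoprogenitor markers were mixed. Of 18, 5 were called higher without replicate 3 and none lower, beside 18.5% and 14.2% of all genes. The median of 0.58 became -0.22 with library sizes alone. Gli1 and Axin2, which mark suture stem cells, were not called, at -0.46 (SE 0.31) and -0.57 (SE 0.39). Prrx1, a marker of limb and skull mesenchyme, was at 218, 151 and 353 and 379, 395 and 150.3 CPM, with vehicle replicate 3 close to MS-275 replicates 1 and 2. Alx1, a homeobox gene of the midface, rose by 1.999 (SE 0.33), Lepr by 1.81 (SE 0.36) and Pdgfra by 1.13 (SE 0.29).

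Osteoclast genes did not go with the bone matrix. Without replicate 3, 1 of 18 was called higher (Ctsk) and 1 lower (Src). Ctsk, the collagen-degrading protease, was at 237, 50.4 and 129 CPM in vehicle and 773, 391 and 47.4 CPM with MS-275. Acp5, the tartrate-resistant phosphatase, was at 87.95, 9.04 and 21.6 and 96.2, 38.9 and 10.01 CPM and Mmp9 at 168, 20.8 and 33.01 and 65.5, 46.99 and 9.49 CPM, with vehicle replicate 1 above or near the highest MS-275 library in both. Ctsk is also expressed by periosteal stem cells and stands in the suture list too. The osteoclast median was 0.32 without replicate 3, and it changed sign to -0.58 with library sizes alone. In WT it was 1.12, but no gene passed the test of the difference between genotypes given at the end.

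Skin transcripts set MS-275 replicates 1 and 2 apart from the other 4 libraries. All 21 epidermal genes were called lower without replicate 3 (median -6.56), and with all 6 none was called (median -1.32). The summed level of the list was 3419, 2483 and 1801 CPM in vehicle, 57.02 and 59.8 CPM in MS-275 replicates 1 and 2, and 2400 CPM in replicate 3. Krt14, the keratin of basal keratinocytes, was at 165, 85.5 and 87.7 CPM in vehicle and 1.30, 0.638 and 189.6 CPM with MS-275 (log2 fold change -6.87, SE 0.63, edgeR adjusted p = 0.00097, without replicate 3). Replicate 3 held more Krt14 than any vehicle library. Lor (loricrin), a protein of the cornified layer, was at 75.05, 81.3 and 91.1 CPM in vehicle and 0.65, 0.239 and 33.6 CPM with MS-275. Krt5, the partner keratin of Krt14, had 2 and 3 counts in MS-275 replicates 1 and 2, beside 392.04, 177 and 138 CPM in vehicle and 270.3 CPM in replicate 3. Casp14, a protease of cornification, was the 1 member with no count in both. The part that unequal amounts of skin RNA had in the other differences was not tested.

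Lens transcripts divided the vehicle group as well. Cryaa, the alpha-crystallin of the lens, was at 369.7, 438 and 5.09 CPM in vehicle, had 1 count each in MS-275 replicates 1 and 2, and stood at 327 CPM in replicate 3. Cryba1 was at 229, 304 and 3.46 and 0.0929, 0 and 294 CPM, and Bfsp1, a lens filament gene, at 24.6, 25.8 and 4.13 and 5.76, 5.03 and 13.7 CPM. In all 3 genes vehicle replicate 3 was far below vehicle replicates 1 and 2. The lens list summed to 1129, 1332 and 77.99 CPM in vehicle and 132, 95.01 and 987 CPM with MS-275, and 4 of 16 members were called lower and 1 higher without replicate 3 (Cryab, which many tissues express).

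The neuronal list as a sum was lowest in MS-275 replicates 1 and 2, with vehicle replicate 3 next. It summed to 1764, 3977 and 595 CPM in vehicle and 382, 218 and 2430 CPM with MS-275. Tubb3, a neuronal tubulin, was at 209, 438 and 54.05 and 22.4, 9.97 and 303 CPM and Stmn2, an axon growth protein, at 186, 405 and 71.9 and 88.8, 25.1 and 289.7 CPM. Without replicate 3, 3 of 18 members were called lower (Nefm, Ina and Bcl11b), beside 14.2% of all genes, with a median of -3.74. Nefm, a neurofilament subunit, was the only one with all 3 MS-275 libraries below vehicle, at 132, 158 and 43.96 CPM in vehicle and 21.5, 11.6 and 22.8 CPM with MS-275 (log2 fold change -2.58, SE 0.72, with all 6).

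Glial and Schwann cell genes gave a clearer pattern across all 6 libraries. In 7 of 16 members all 3 MS-275 libraries lay below all 3 vehicle libraries, beside 8.56% of all genes, and none lay above. Sox10, the factor of the glial lineage, was at 19.2, 13.4 and 21.6 and 1.39, 11.6 and 7.88 CPM, and Ngfr, the low-affinity neurotrophin receptor, at 56.1, 36.1 and 21.96 and 14.2, 11.01 and 18.1 CPM. Without replicate 3, 5 were called lower (among them Mbp, Erbb3, Ngfr and Foxd3) and 2 higher (Pmp22 and S100b, which connective tissue and cartilage also express).

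Of 10 pigment cell genes, 3 were called lower without replicate 3 and none higher, beside 14.2% and 18.5% of all genes. Tyr (tyrosinase) was at 6.38, 7.79 and 5.09 and 1.49, 1.99 and 8.57 CPM and Pmel at 30.1, 31.7 and 9.53 and 1.39, 7.74 and 27.2 CPM, and both passed, with Trpm1. Mlana was at -1.74 (SE 0.75) and did not pass. Fewer cells of a type and less RNA per cell cannot be told apart in these bulk libraries.

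Skeletal muscle did not separate the treatments. Of 17 members, 1 was called higher without replicate 3 (Mylpf, a fast myosin light chain, 1.99, SE 0.55) and 1 lower (Ryr1, the calcium release channel, -2.43, SE 0.73). Acta1, the skeletal actin, was at 874, 571 and 435 and 231, 375 and 330.3 CPM, with all 3 MS-275 libraries below vehicle, and the embryonic myosin Myh3 was at 1460, 1048 and 178 and 901, 1122 and 1049 CPM, with overlapping groups. The list's median was -0.19 with all 6 libraries, beside -2.25 in WT.

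In adipocyte genes MS-275 replicate 3 stood far above every other library. Its mean log2 CPM over the list was 5.26, beside 2.76 and 2.75 in replicates 1 and 2 and 2.95 to 3.29 in vehicle. Adipoq (adiponectin) was at 0.647, 0.732 and 0.102 CPM in vehicle, without a count in replicates 1 and 2, and at 31.7 CPM in replicate 3. Ucp1, the uncoupling protein of brown fat, was at 0.74, 1.51 and 0.255 CPM in vehicle, without a count in replicates 1 and 2, and at 23.4 CPM in replicate 3, and Cidea, another brown fat gene, was at 3.61, 3.14 and 0.815 and 4.37, 3.99 and 27.9 CPM. Elovl3, which elongates fatty acids in brown fat, was at 3.79, 0.904 and 0.102 and 0.464, 0.0798 and 1.78 CPM. The 8 brown fat genes together, in a list drawn up after the values had been seen, summed to 36.8, 35.2 and 30.8 CPM in vehicle and 30.4, 30.6 and 96.2 CPM with MS-275, and only Prdm16 was called (lower). Of the 13 adipocyte genes, 4 lay above vehicle in all 3 MS-275 libraries, beside 6.33% of all genes. Pparg, the adipocyte master regulator, was at 3.01, 2.50 and 4.08 and 9.19, 5.98 and 12.5 CPM, and Fabp4, which endothelium also expresses, at 30.1, 22.7 and 67.2 and 161, 129 and 219 CPM. Cd36, a fatty acid transporter of fat, endothelium and macrophages, was at 36.4, 27.7 and 47.7 CPM in vehicle and 176, 142 and 124 CPM with MS-275 (log2 fold change 1.99, SE 0.41, with all 6, and 2.10, SE 0.45, edgeR adjusted p = 0.00962, without replicate 3). Lpl, the lipoprotein lipase, was at 67.5, 47.6 and 52.7 and 112, 113 and 115 CPM, nearly the same in the 3 MS-275 libraries. Without replicate 3, Lpl and Cd36 were called higher and Cebpa, Dgat2, Fasn and Acsl1 lower.

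Among cells of blood and vessels, macrophage genes were the most uniform. Without replicate 3, 12 of 17 were called higher and none lower, with a median of 1.75, and with all 6 the median was 1.34. Mrc1, the mannose receptor of tissue macrophages, was at 78.8, 56.7 and 139.6 CPM in vehicle and 588, 420.1 and 50.4 CPM with MS-275 (log2 fold change 2.46, SE 0.46, edgeR adjusted p = 0.00614, without replicate 3). Adgre1 (F4/80) was at 12.5, 8.87 and 21.5 and 72.3, 63.8 and 8.05 CPM and was called without replicate 3, and Cd68 was at 15.03, 6.03 and 11.4 and 19.7, 20.5 and 9.53 CPM and was not. Replicate 3 was below vehicle in Mrc1 and Adgre1. Of 16 endothelial genes, 4 were called higher without replicate 3 and none lower, beside 18.5% and 14.2% of all genes. Their median of 0.37 changed sign to -0.50 with library sizes alone. Pecam1 rose by 2.04 (SE 0.25) and Emcn, a marker of vessels that accompany bone formation, by 2.53 (SE 0.45), whereas Cdh5 (VE-cadherin) was at 0.77 (SE 0.29) and not called.

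Red cell genes did not move as 1 group. The globins Hba-a1 and Hbb-bt were at 1.24 (SE 0.59) and 1.73 (SE 0.71) without replicate 3, not called, and their near-identical copies make the split of reads uncertain. Slc4a1, the anion exchanger of the red cell membrane, lay lower in all 3 MS-275 libraries, at 39.7, 47.97 and 17.6 CPM in vehicle and 10.2, 4.79 and 10.9 CPM with MS-275, as did Trim10 and Tal1. Gata1, the erythroid regulator, was under 1 CPM in each library. Neutrophil genes differed little: Mpo was under 3 CPM in each library, Ngp and Camp were not called, and Mmp8, a collagenase that osteoblast-lineage cells can also express, was the only member called (log2 fold change 2.07, SE 0.41, without replicate 3). Of the 14 meningeal and dural genes, 4 were called higher without replicate 3, among them the proteoglycans Lum (2.99, SE 0.59) and Dcn (2.91, SE 0.47), which periosteum and tendon also express, and 1 lower, the retinol dehydrogenase gene Rdh10. Over all genes the shares were 18.5% higher and 14.2% lower. Foxc1 was at 27.1, 22.4 and 91.8 and 61.5, 77.5 and 13.1 CPM, with vehicle replicate 3 the highest.

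**Figure D3:**
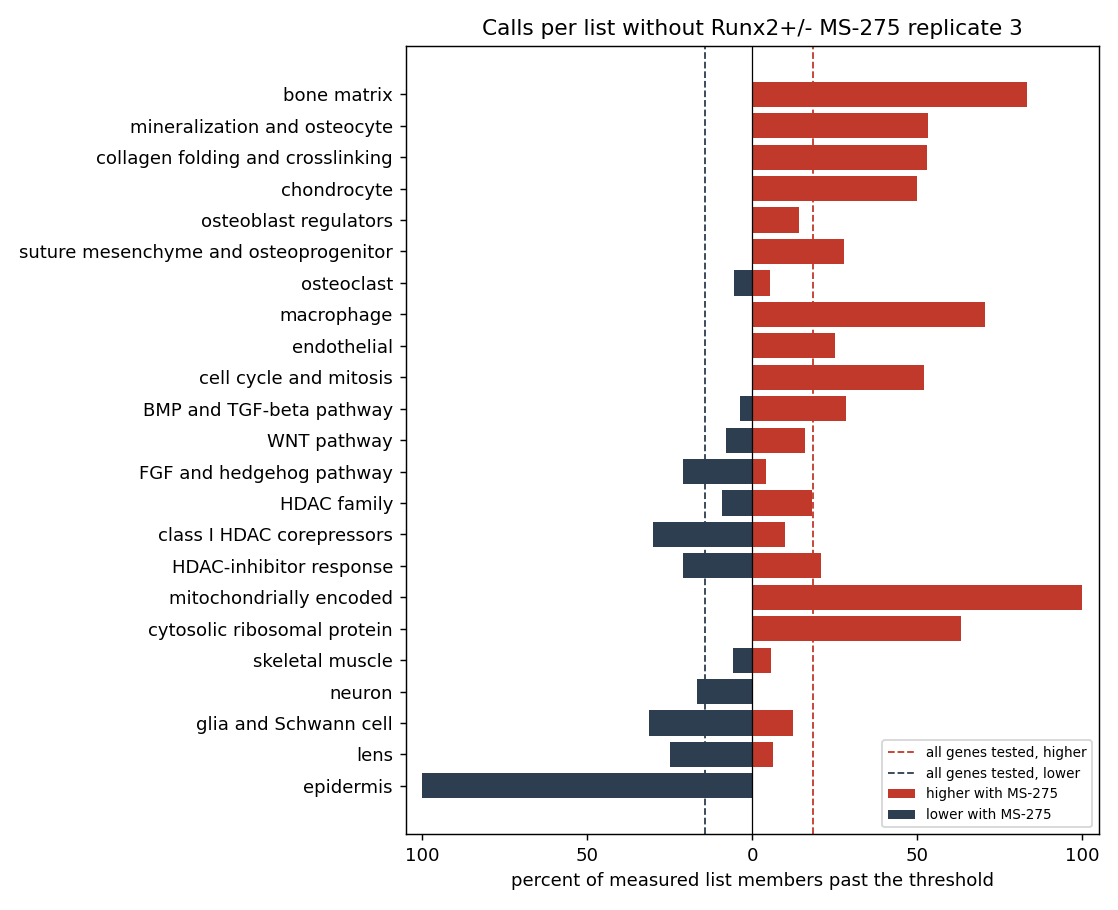
Share of measured members of each list called higher (red, right) or lower (dark blue, left) by edgeR without MS-275 replicate 3. Dashed lines mark the shares over all genes tested, 18.5% higher and 14.2% lower, and with all 6 libraries every bar would be 0.

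The HDAC genes, whose class I enzymes the drug inhibits, did not move as a group. Of 11 HDAC genes measured, 2 were called higher without replicate 3 (Hdac1 and Hdac8, both class I) and 1 lower (Hdac6, a tubulin deacetylase), close to the share over all genes. Hdac1 was at 75.5, 67.0 and 93.99 CPM in vehicle and 187, 130.4 and 75.6 CPM with MS-275 (log2 fold change 1.01, SE 0.23, edgeR adjusted p = 0.012, without replicate 3). Hdac2, its close paralog, was at 183, 219 and 185 and 364, 244 and 217 CPM and Hdac3, the enzyme of the NCoR complex, at 80.5, 81.1 and 87.2 and 96.03, 92.1 and 95.1 CPM, and neither was called. Hdac3 was the only family member with all 3 MS-275 libraries above vehicle, by 0.19 (SE 0.13) on the log2 scale, which became -0.29 with library sizes alone.

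More corepressor genes lay below vehicle than above. In 7 of 20 genes of the Sin3, NuRD, NCoR and CoREST complexes all 3 MS-275 libraries lay below vehicle, and in 1 (Sin3b) above. Over all genes these shares were 8.56% and 6.33%. Rcor1, the CoREST scaffold, was at 84.6, 70.4 and 76.6 CPM in vehicle and 38.5, 44.8 and 52.4 CPM with MS-275 (log2 fold change -0.77, SE 0.16, with all 6, and -0.89, SE 0.16, edgeR adjusted p = 0.00502, without replicate 3). Chd4, the NuRD helicase, was at 296, 286 and 257 CPM in vehicle and 149.8, 173 and 197 CPM with MS-275. Sin3a was at 60.6, 61.3 and 65.6 and 58.98, 59.99 and 58.5 CPM, lower in all 3 but by little, and Ncor1 was at 209, 235 and 189.96 and 155, 181 and 194 CPM, with overlap. Without replicate 3, 6 were called lower and 2 higher (Sin3b and Rbbp7), beside 14.2% and 18.5% of all genes.

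Genes that HDAC inhibitors are known to raise in cultured cells did not rise as a group. Of 19 members, 4 were called higher without replicate 3 (Hist1h1c, Hist1h2bc, Sat1 and Txnip) and 4 lower, beside 18.5% and 14.2% of all genes. Cdkn1a (p21), the best known of them, was at 83.7, 53.8 and 40.4 CPM in vehicle and 67.4, 57.4 and 43.2 CPM with MS-275, with overlapping groups. The linker histone gene Hist1h1c was at 25.3, 19.2 and 25.1 CPM in vehicle and 57.02, 76.3 and 14.6 CPM with MS-275. Gadd45b was at 14.7, 8.48 and 19.9 and 23.4, 26.4 and 5.48 CPM and not called. With library sizes alone the list's median changed sign from 0.39 to -0.43.

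Among signalling genes, BMP and TGF-beta members were called higher more often than lower. Without replicate 3, 8 of 28 were higher and 1 lower, beside 18.5% and 14.2% of all genes. The ligands Bmp2 and Bmp4 were at 10.3, 6.89 and 14.01 and 14.6, 16.4 and 4.70 CPM and at 17.02, 11.7 and 34.7 and 44.9, 45.1 and 10.9 CPM, and neither was called. Bmp3 rose by 1.99 (SE 0.32) and Bmp5 by 2.25 (SE 0.55), and the receptor Bmpr1a by 1.35 (SE 0.21), without replicate 3. Bambi, a pseudoreceptor that blocks the pathway, differed most, at 29.5, 13.99 and 26.3 CPM in vehicle and 294, 179 and 16.6 CPM with MS-275 (log2 fold change 3.35, SE 0.40, edgeR adjusted p = 0.00197, without replicate 3). The target Id1 rose by 1.40 (SE 0.40). The median of the list was 0.44 without replicate 3 and -0.36 with library sizes alone.

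WNT genes were close to the background. Of 25, 4 were called higher (Wif1, Dkk2, Frzb and Ctnnb1) and 2 lower (Nkd2 and Znrf3) without replicate 3. Wif1, a secreted inhibitor, was at 68.2, 26.8 and 41.9 CPM in vehicle and 292, 198 and 29.6 CPM with MS-275. The target genes Lef1 and Axin2 were not called, at -0.84 (SE 0.43) and -0.57 (SE 0.39).

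More FGF and hedgehog genes were called lower than higher. In 6 of 24 members all 3 MS-275 libraries lay below vehicle and in none above, beside 8.56% and 6.33% of all genes. Without replicate 3, 5 were called lower and 1 higher (Fgf7), beside 14.2% and 18.5% of all genes. The receptors Fgfr1, Fgfr2 and Fgfr3, mutated in craniosynostoses, were not called, at -0.18 (SE 0.27), 0.38 (SE 0.28) and 0.19 (SE 0.21). Spry2, a feedback inhibitor of FGF signalling, was called lower without replicate 3. It was at 16.6, 16.3 and 19.7 CPM in vehicle and 5.48, 9.09 and 11.6 CPM with MS-275 (log2 fold change -1.01, SE 0.32, with all 6). Spry1 was at 28.3, 14.98 and 21.4 and 7.80, 12.4 and 10.2 CPM and Spry4 at 19.4, 13.95 and 16.7 and 11.2, 10.53 and 9.53 CPM, again without overlap but not called. Spred2, another inhibitor of the pathway, is not a member of this list and was named for its small p among all genes. It was at 39.2, 42.3 and 35.5 CPM in vehicle and 20.1, 22.5 and 19.4 CPM with MS-275 (log2 fold change -0.92, SE 0.16). Ptch1, the hedgehog receptor and itself a target, was at 49.5, 38.1 and 37.2 CPM in vehicle and 19.04, 22.7 and 26.8 CPM with MS-275 (log2 fold change -0.86, SE 0.19, with all 6, and -0.996, SE 0.19, edgeR adjusted p = 0.00697, without replicate 3). The glial genes in the same libraries were lower too, and their part in these differences was not tested.

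Mitotic genes were higher in MS-275 replicates 1 and 2. Without replicate 3, 12 of 23 were called higher and none lower, with a median of 0.68 that changed sign to -0.19 with library sizes alone. Top2a, the topoisomerase of dividing cells, was at 258, 234 and 218 CPM in vehicle and 644, 527 and 289 CPM with MS-275, all 3 above vehicle (log2 fold change 1.04, SE 0.30, with all 6). Mki67 was at 329.5, 292 and 277 and 493, 467 and 309.5 CPM and Pcna at 83.3, 79.4 and 120.2 and 359, 189.8 and 94.7 CPM, both called without replicate 3. The replication helicase genes Mcm2, Mcm3 and Mcm5 were not called, and Ccnd1 (cyclin D1) lay lower in all 3 MS-275 libraries.

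Targets of p53 were divided, with 5 of 18 called higher and 4 lower without replicate 3, beside 18.5% and 14.2% of all genes. Fas, the death receptor, was at 5.64, 4.31 and 4.08 CPM in vehicle and 15.9, 14.997 and 6.14 CPM with MS-275, and Bcl2, the survival factor, at 31.8, 29.2 and 34.3 and 16.9, 20.98 and 20.8 CPM, the first above and the second below vehicle in all 3 libraries. Mdm2 was at 56.2, 58.6 and 58.7 and 63.2, 49.8 and 74.1 CPM, with overlap. Of 16 immediate early and stress genes, 6 lay below vehicle in all 3 MS-275 libraries (Jun, Junb, Hspa1a, Hspa1b, Dusp1 and Atf3) and none above. The shares over all genes were 8.56% below and 6.33% above. Jun was at 41.6, 33.2 and 57.3 CPM in vehicle and 19.9, 22.1 and 16.02 CPM with MS-275 (log2 fold change -1.19, SE 0.29, with all 6), and here replicate 3 was the lowest library. The heat shock gene Hspa1b, whose reads the counting could split with its near-identical copy Hspa1a, was at 5.92, 6.20 and 5.15 and 1.95, 1.28 and 3.18 CPM. Fos and Egr1 were not called, at 9.16, 6.37 and 8.66 and 9.29, 5.74 and 3.61 CPM and at 16.3, 10.7 and 20.1 and 25.5, 14.2 and 9.31 CPM.

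Mitochondrially encoded genes were higher in every MS-275 library, replicate 3 included. In 12 of 12 all 3 MS-275 libraries lay above all 3 vehicle libraries, beside 6.33% of all genes, with a median log2 fold change of 2.67 with all 6 and 3.09 without replicate 3. By edgeR all passed without replicate 3 and none with it, while DESeq2 called all 12 higher with all 6 libraries. mt-Nd1, a subunit of complex I, was at 2181, 2100 and 2706 CPM in vehicle and 29399, 11276 and 5274 CPM with MS-275 (log2 fold change 2.72, SE 0.67, with all 6). mt-Cytb, of complex III, was at 3918, 3858 and 4137 CPM in vehicle and 48797, 20507 and 8617 CPM with MS-275. mt-Co1, of complex IV, had a log2 fold change of 2.63 (SE 0.72) with all 6. Replicate 3 lay between the vehicle libraries and replicates 1 and 2 in these 3 genes. No measure of RNA quality is given in the sources used here, and its part in these values was not tested.

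Nuclear genes of mitochondrial metabolism followed. These lists were drawn up after the values had been seen, so their counts describe a pattern already noticed. Of 18 fatty acid oxidation genes, 11 lay above vehicle in all 3 MS-275 libraries and 0 below. Of 18 citric acid cycle genes, 10 lay above and 1 below, beside 6.33% and 8.56% of all genes. DESeq2 called 9 of the former and 8 of the latter higher with all 6 libraries. Hadhb, of the mitochondrial trifunctional protein, was at 51.9, 49.4 and 53.5 CPM in vehicle and 201, 137 and 101 CPM with MS-275 (log2 fold change 1.502, SE 0.30, with all 6, and 1.71, SE 0.29, edgeR adjusted p = 0.0045, without replicate 3), and its partner Hadha was at 116, 93.4 and 101 and 266, 209 and 174 CPM. Cpt1a, which admits fatty acids to mitochondria, overlapped at 39.999, 34.02 and 41.2 and 42.8, 41.004 and 27.9 CPM. Idh3g, a subunit of isocitrate dehydrogenase, was at 55.6, 59.4 and 50.4 CPM in vehicle and 139, 108 and 88.3 CPM with MS-275 (log2 fold change 1.02, SE 0.21, with all 6). Cs (citrate synthase) and Mdh2 were not called, at 167, 175 and 130.2 and 117, 104.7 and 168 CPM and at 139, 128 and 116 and 198, 140.2 and 136 CPM. Replicate 3 was also the library with brown fat transcripts, whose part in its values was not tested. With library sizes alone and without replicate 3 the median of the citric acid cycle list changed sign to -0.07, and that of the fatty acid list was 0.12.

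Cytosolic ribosomal protein genes were higher in MS-275 replicates 1 and 2 alone. Without replicate 3, 19 of 30 were called higher and none lower (median 1.76), while in 30 of 30 replicate 3 lay within the vehicle range. Rplp0 was at 1014, 771 and 1557 CPM in vehicle and 4786, 3329 and 844 CPM with MS-275, Rps6 at 392.4, 325 and 908 and 1854, 1219 and 391.9 CPM, and Rpl3 at 686, 558 and 1140 and 2953, 2154 and 674 CPM. Vehicle replicate 3 was the highest vehicle library in each.

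Genes of the integrated stress response, in which ATF4 raises amino acid supply, were also listed after the values had been seen. In 9 of 20 all 3 MS-275 libraries lay below vehicle and in 1 (Asns) above, beside 8.56% and 6.33% of all genes. Atf5, an ATF4 target, had the smallest p of all genes with 6 libraries, at 56.6, 46.5 and 41.2 CPM in vehicle and 14.7, 16.6 and 21.4 CPM with MS-275 (log2 fold change -1.45, SE 0.19, edgeR adjusted p = 0.181). Without replicate 3 it was called, at -1.62 (SE 0.19, edgeR adjusted p = 0.00164). Ppp1r15a (GADD34), which restores translation, was at 17.8, 14.7 and 17.98 CPM in vehicle and 7.71, 9.25 and 8.49 CPM with MS-275, and Slc7a5, the leucine transporter, at 51.5, 54.7 and 36.4 and 11.6, 13.8 and 25.2 CPM. Atf4 itself overlapped, at 135, 114 and 156 and 179, 119.6 and 98.5 CPM, as did Chac1, at 0.74, 1.16 and 1.38 and 1.21, 0.957 and 0.566 CPM. Psat1, Phgdh and Mthfd2, enzymes of serine and one-carbon synthesis, were called higher without replicate 3, so the members did not move in 1 direction.

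**Figure D4:**
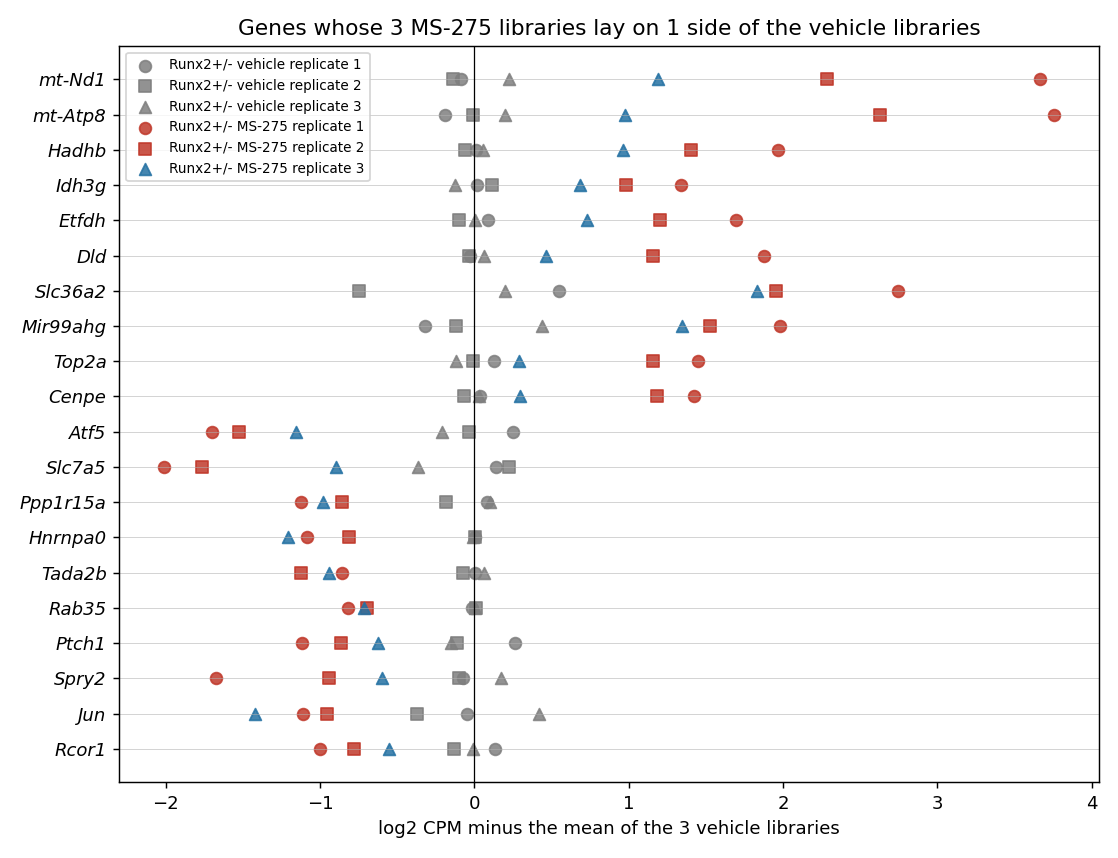
Log2 CPM of 20 genes in each Runx2+/- library, minus the mean of the 3 vehicle libraries, for genes whose 3 MS-275 libraries all lay above or all below vehicle. The blue triangle, MS-275 replicate 3, lies nearer to vehicle than the red symbols for mt-Nd1 and Top2a, and beside them for Hnrnpa0, Rab35 and Tada2b.

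A set of genes with close levels within each group followed Atf5 in the order of p. Hnrnpa0, an RNA-binding protein gene, was at 189.5, 189 and 187 CPM in vehicle and 89.1, 107 and 81.7 CPM with MS-275 (log2 fold change -1.03, SE 0.17). Rab35, a small GTPase of endosomes, was at 45.6, 46.3 and 46.2 CPM in vehicle and 26.1, 28.5 and 27.99 CPM with MS-275 (-0.74, SE 0.13). Tada2b, a subunit of the SAGA histone acetyltransferase complex, was at 17.2, 16.4 and 17.98 CPM in vehicle and 9.47, 7.90 and 8.97 CPM with MS-275 (-0.97, SE 0.16). In these 3 genes replicate 3 was as low as replicates 1 and 2, unlike its place in the bone and skin lists. They were chosen by small p with all 6 libraries, which favours genes with close levels within each group. The place of replicate 3 in them therefore follows from the choice and describes these genes only. Pithd1 (-0.94, SE 0.16), the ubiquilin gene Ubqln1 (-0.80, SE 0.14), the RING finger gene Rnf10 (-0.85, SE 0.16) and Tmem158 (-1.31, SE 0.24) were lower in the same way. With all 6 libraries edgeR called none of these genes and DESeq2 called each of them, and without replicate 3 edgeR called each of them. These calls rest on the same counts as the choice.

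Outside the lists, the genes of smallest p with all 3 MS-275 libraries above vehicle began with Mir99ahg, the host transcript of a microRNA cluster, at 12.7, 14.6 and 21.5 CPM in vehicle and 62.6, 45.7 and 40.3 CPM with MS-275 (log2 fold change 1.61, SE 0.30). Slc36a2, an amino acid transporter of bone and brown fat, was at 16.2, 6.59 and 12.7 CPM in vehicle and 74.1, 42.8 and 39.3 CPM with MS-275 (2.14, SE 0.43). Xrcc6, the Ku70 gene of DNA end joining, was at 31.999, 32.5 and 34.7 and 92.8, 61.8 and 54.7 CPM (1.08, SE 0.22) and Cfp (properdin), of the complement system, at 10.2, 13.95 and 12.6 and 29.998, 23.5 and 22.7 CPM (1.05, SE 0.22). The galectin gene Lgals2 was at 0.277, 0.215 and 0.102 CPM in vehicle and at 6.69, 4.71 and 0.392 CPM with MS-275, so replicate 3 exceeded vehicle by few reads. Gm13340 (3.19, SE 0.63), Dpp7 (0.77, SE 0.17) and Cd1d1 (1.26, SE 0.27) completed the 8.

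Without replicate 3, the largest increases among genes at 5 CPM or more were those of Fgf23, Mepe, Bglap2, Spp1, Lgals2, Bglap, Snorc and Ifitm5, of which 6 are bone genes and Snorc is a cartilage gene. The largest decreases were genes with no or almost no count in MS-275 replicates 1 and 2. With 3 counts per library as the floor, averaged over replicates 1 and 2, Afp (alpha-fetoprotein), made by fetal liver and yolk sac, was at least 312-fold lower than in vehicle, and Ahsg (fetuin-A), a liver protein that binds mineral, at least 108-fold. The epidermal genes Rptn, Csta1, Lce1m, Flg2 and Serpinb3a were at least 171-, 120.1-, 113-, 91.8- and 87.7-fold lower. All of these are bounds against the mean of the 3 vehicle libraries. These bounds depend on single vehicle libraries: with each left out in turn they ran from 122 to 439 for Afp, 50.7 to 156 for Ahsg, 105.3 to 255 for Rptn, 68.3 to 148 for Csta1, 92.7 to 124 for Lce1m, 65.1 to 116 for Flg2 and 63.4 to 122 for Serpinb3a. Rptn was at 78.3, 53.7 and 0.866 CPM in vehicle, where the floor was 0.259 CPM. Serpinb3a was at 35.3, 27.99 and 4.84 CPM and Ahsg at 22.98, 57.96 and 3.26 CPM. Against vehicle replicate 3 alone the bounds of Rptn, Serpinb3a and Ahsg would be far smaller. Csta1 and Lce1m were instead highest in that library. The last of the 8 was the lens gene Cryba1. Afp was at 48.4, 179 and 15.1 CPM in vehicle and 11.5 CPM in replicate 3.

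The drug difference in Runx2+/- was set against that in WT, which shares no library with it. Across genes, the log2 fold changes of the 2 genotypes correlated at 0.71 with all libraries and at 0.90 without replicate 3, a description over 17967 and 17963 genes, which are not independent. Replicate 3 was set aside because it resembled vehicle, so a higher correlation without it follows in part from that choice. The epidermal median was -6.56 in Runx2+/- without replicate 3 and -6.80 in WT. The part of skin transcripts in these correlations was not tested. Spp1 differed by 4.92 in Runx2+/- without replicate 3 and by 4.99 in WT, Bglap by 4.55 and 5.25, Krt14 by -6.87 and -6.15, and mt-Nd1 by 3.13 and 2.76 on the log2 scale. These 4 genes had large differences and do not stand for all lists. In the same order, the bone matrix median was 1.92 and 2.31, and the skeletal muscle median -0.40 and -2.25. In the test of the difference itself, which subtracts the WT response from the Runx2+/- response, edgeR called 0 genes with all 12 libraries (953 with unadjusted p under 0.05, smallest adjusted p 0.873) and 0 without replicate 3 (509 with unadjusted p under 0.05). DESeq2 called 38 genes higher and 0 lower, and in 19 of them MS-275 replicate 3 was above the other 5 Runx2+/- libraries. Many of the rest had no count in MS-275 replicates 1 and 2 but reads in replicate 3. Among these were Lce1b (4.87 CPM in replicate 3), Il1f8 (5.22 CPM) and Foxa1 (5.75 CPM), so those calls also rest on that library. Leaving out Runx2+/- MS-275 replicate 1 gave 1 edgeR call, Lrp2 (megalin), an endocytic receptor, at 18.7, 19.3 and 24.5 CPM in vehicle and 0.557, 12.4 and 8.79 CPM with MS-275. Calls of 0 do not show that the genotypes responded alike.

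**Figure D5:**
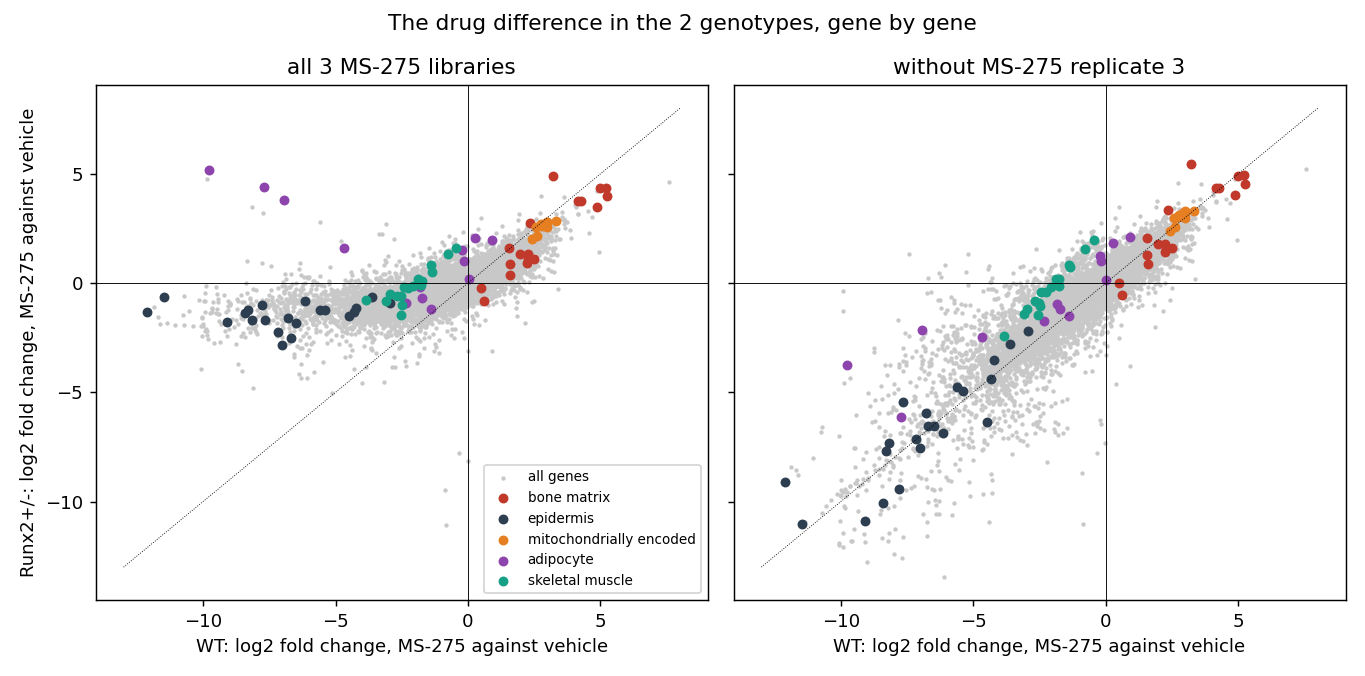
Log2 fold change of MS-275 against vehicle per gene in WT (horizontal) and in Runx2+/- (vertical), with all 3 Runx2+/- MS-275 libraries on the left and without replicate 3 on the right. Grey points are all genes, coloured points 5 lists, and the dotted line marks equal differences. On the left the epidermal genes lie above the line and on the right near it, values of genes with no count in a group depend on the fit's prior count, and the correlations are 0.71 and 0.90.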

How the data were processed

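Counts per gene were deposited by the authors, 1 table per library, for RNA of calvariae sequenced on an Illumina NextSeq 500 after a TruSeq Stranded Total RNA preparation, per the labels' protocols. The submitters' processing notes name Trimmomatic, Bowtie2, SAMtools and HTSeq without versions, and the human build GRCh38.p7 although the identifiers are mouse Ensembl genes; no source used here gives the strand setting, so overlapping and antisense genes cannot be told apart. Summary entries (no feature, ambiguous and others) were removed. Symbols and GRCm38 positions came from GENCODE M21 and a gene name table, which named 37607 of 39179 identifiers.

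edgeR 4.0.16 (R 4.3.3) with TMM factors, its filter on low counts and robust quasi-likelihood tests was fitted to all 12 libraries as 4 group means, at a Benjamini-Hochberg adjusted p of 0.05, so all 4 groups share 1 estimate of spread. Standard errors are the log2 fold change divided by the root of the F statistic. The script was tested on simulated counts. DESeq2 1.42.0, limma 3.58.1, other scalings, filters and libraries left out were alternatives, 22 planned and 6 added. Depth was 15405004 to 17865741 counts in genes per Runx2+/- library.

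The comparison, its members and the gene lists were chosen with earlier results of these data known, and 4 lists were added later, so counts in lists are descriptions. The text names Runx2, the leading 3 measured members of each list and members that passed; a few that this rule names are not reported here. It also names the 8 genes of smallest p, the 8 with the largest change in each direction (at 5 CPM or more) and the 8 in each direction outside the lists, by p, whose MS-275 libraries all lay on 1 side of vehicle. Xist and 4 Y-linked genes served as a check of sex. Some further members of lists were named after their values were seen, as were Lrp2 and the genes in the plots.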

Additional observations from a re-analysis of the deposited data

How the results depend on the processing

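With all 6 Runx2+/- libraries edgeR called 0 genes higher and 0 lower under RLE size factors, library sizes alone, no filter, a stricter filter and a fit of the Runx2+/- libraries only, as did limma-voom; DESeq2 called 812 and 408. Leaving out 1 library at a time gave 0 to 3367 higher and 0 to 2588 lower calls, all of them without MS-275 replicate 3. Without that library, 784 and 8755 were called with library sizes alone, 3211 and 2703 with RLE factors, 3788 and 3998 by DESeq2, 3295 and 1802 by limma-voom and 2408 and 1579 from the Runx2+/- libraries only. Without replicate 3 of both groups 3567 and 3873 were called. limma-voom with library weights, which gave MS-275 replicate 3 the weight 0.0994, called 5153 and 5386. These weights, and the other scalings, tools and samples tried without replicate 3, were added after the data had been seen; leaving out replicate 3 of both groups was planned. The difference between genotypes gave 38 and 0 calls by DESeq2 and 0 to 1 when single libraries were left out; the causes were not tested.

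Same-numbered vehicle and MS-275 libraries deviated in opposite directions (r = -0.25, -0.56 and -0.66). The deviations were taken from group means that include the outlying MS-275 replicate 3. They therefore cannot decide whether the numbers pair the libraries, and the main fit did not pair them. The replicate block left 0 calls with all 6 and gave 4336 higher and 3890 lower without MS-275 replicate 3.

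Signs of small differences turned. With all 6 and library sizes alone the log2 fold change was -0.26 for Ank, -0.16 for Cbfb, -0.38 for Cdh5, -0.48 for Col1a1, -0.41 for Fgfr2, -0.39 for Fgfr3 and -0.053 for Hba-a1. It was -0.29 for Hdac3, -0.20 for Lox, -0.21 for Runx2 and -0.27 for Sp7. Without MS-275 replicate 3 and with library sizes alone it was -0.10 for Ank, -0.069 for Cbfb, -0.078 for Cdh5, -0.037 for Col1a1, -0.026 for Dpp7 and -0.44 for Fgfr2. It was -0.67 for Fgfr3, -0.68 for Hdac3 and -0.069 for Runx2. Fgfr3 was at -0.032 without replicate 3 of both groups and at -0.058 with library weights. Leaving out single libraries gave ranges across 0 for Ank (-0.040 to 0.81), Col1a1 (-0.39 to 1.13), Fgfr2 (-0.13 to 0.38), Fgfr3 (-0.082 to 0.38) and Gli1 (-0.46 to 0.15).

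Precision was limited by 3 libraries a group. Over genes in both fits the median SE was 0.37 with all 6 libraries and 0.33 without MS-275 replicate 3. The median absolute log2 fold change over all genes tested was 0.46 and 0.73 in the same order. Genes with no count in MS-275 replicates 1 and 2 have lower bounds only.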
